A study of Mus musculus with 12 samples.

Results

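The 6 genes Dnmt1, Dnmt3a, Dnmt3b, Dnmt3l, Uhrf1 and Uhrf2 were taken by name from tables of 46517 genes measured by RNA sequencing in 2 mouse tumour cell lines. The melanoma line B16F10 and the mammary carcinoma line 4T1 were grown in culture plates. Control B16F10 and control 4T1 cells carried no treatment in the labels, and the treated cells had received DAC (decitabine) for 48 h, at 0.1 µM in B16F10 and at 1 µM in 4T1. On the mouse build mm10 the members lie at chr9:20907209-20959888 (Dnmt1, minus strand), chr12:3806007-3914443 (Dnmt3a), chr2:153649450-153687730 (Dnmt3b), chr10:78041947-78063622 (Dnmt3l), chr17:56303321-56323486 (Uhrf1) and chr19:30030513-30093722 (Uhrf2), the last 5 on the plus strand. Dead cells were removed from the wells with microbeads, so that the libraries describe the cells that were still alive. The 12 libraries fell into 4 groups of 3. Nothing in the labels says that the 3 came from separate cultures, and the spread behind the p-values may therefore be technical. Dose differs together with the line, and the effects of dose and line cannot be told apart.

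DNA methyltransferases add methyl groups to cytosine, mostly where it is followed by guanine (CpG). Dnmt1 copies the methylation pattern onto the new strand after DNA replication, and Uhrf1 finds the half-methylated sites and brings Dnmt1 to them. Dnmt3a and Dnmt3b set methylation on unmethylated DNA, Dnmt3l is a catalytically inactive partner of theirs in germ cells, and Uhrf2 is a relative of Uhrf1 with a less defined role in maintenance. Decitabine is a cytidine analogue that is built into DNA during replication and traps these enzymes there, after which the trapped protein is degraded. The RNA levels given here do not measure the proteins, their activity or methylation.

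The libraries held 48197936 to 76042600 estimated counts, and intervals on counts cover counting error only. The 7 melanocyte markers summed to between 11871 and 12197 CPM (counts scaled to library size, with TMM factors) in control B16F10 and between 5.93 and 6.91 CPM in control 4T1, where Dct, Sox10 and Tyrp1 had no count. The 7 epithelial markers summed to between 3201 and 3361 CPM in control 4T1 and between 3.46 and 4.54 CPM in control B16F10, where Krt8, Krt18, Krt19 and Cldn4 had no count. With decitabine, 1 melanocyte marker rose and 4 fell of 7 tested in B16F10, and 2 epithelial markers rose and 3 fell of 7 tested in 4T1. Summed markers of other cell types stayed low, at most 58.6 CPM for fibroblasts, 4.54 CPM for blood cells and 46.8 CPM for endothelium in any library. In 4T1 the endothelial sum went from between 11.4 and 16.8 CPM to between 23.1 and 46.8 CPM with 2 of 4 tested markers higher, the fibroblast sum from between 10.8 and 11.3 to between 19.0 and 22.1 CPM with 2 of 3 higher and 1 lower, and the blood sum from between 0.137 and 0.191 to between 2.25 and 4.11 CPM with 3 of 3 higher. In B16F10, 3 of 4 tested fibroblast markers, 1 of 3 blood markers and 0 of 1 endothelial marker passed the threshold, all of those upward. Of all tested genes 41.2% passed the threshold in B16F10 and 75.3% in 4T1. The part of these markers in the results below was not tested. Immediate early and heat shock genes respond to handling. They summed to between 490.4 and 850.1 CPM in control 4T1 and stood highest in its replicate 1. Several results that rest on this library are also given without it.

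In the maintenance pair, 1 listed promoter window of each gene held a feature of sequence that no window of the other members held. The RefSeq promoter table for GRCm38.p6 (250 bases before to 50 after each listed start) held windows for all 6 members, and for each of 4 genes the window with the most CpG is printed here because these genes carry the responses described below. Capitals mark 8-base words of the kind bound by E2F factors, which drive genes of DNA replication. The words searched, on both strands, were TTTCCCGC, TTTCGCGC, TTTGCCGC and TTTGGCGC, none of which contains another.
Dnmt1, chr9:20952574-20952873, minus strand: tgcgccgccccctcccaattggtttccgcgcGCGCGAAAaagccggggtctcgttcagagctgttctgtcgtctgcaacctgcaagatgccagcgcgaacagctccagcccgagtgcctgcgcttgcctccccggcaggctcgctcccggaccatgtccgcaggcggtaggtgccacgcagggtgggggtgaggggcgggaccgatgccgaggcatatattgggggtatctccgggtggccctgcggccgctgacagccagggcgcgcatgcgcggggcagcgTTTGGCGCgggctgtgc
Uhrf1, chr17:56304063-56304362, plus strand: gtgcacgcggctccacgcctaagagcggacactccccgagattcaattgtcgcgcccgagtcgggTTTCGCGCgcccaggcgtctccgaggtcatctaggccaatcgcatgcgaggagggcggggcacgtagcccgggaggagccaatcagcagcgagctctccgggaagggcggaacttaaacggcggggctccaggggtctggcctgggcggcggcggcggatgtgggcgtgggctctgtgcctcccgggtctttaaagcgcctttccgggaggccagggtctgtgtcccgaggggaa
Uhrf2, chr19:30030263-30030562, plus strand: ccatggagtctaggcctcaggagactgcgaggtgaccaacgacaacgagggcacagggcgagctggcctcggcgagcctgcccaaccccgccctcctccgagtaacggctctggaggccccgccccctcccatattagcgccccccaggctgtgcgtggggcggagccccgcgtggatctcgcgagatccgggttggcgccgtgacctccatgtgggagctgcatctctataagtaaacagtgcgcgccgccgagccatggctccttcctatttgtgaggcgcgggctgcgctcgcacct
Dnmt3a, chr12:3806910-3807209, plus strand: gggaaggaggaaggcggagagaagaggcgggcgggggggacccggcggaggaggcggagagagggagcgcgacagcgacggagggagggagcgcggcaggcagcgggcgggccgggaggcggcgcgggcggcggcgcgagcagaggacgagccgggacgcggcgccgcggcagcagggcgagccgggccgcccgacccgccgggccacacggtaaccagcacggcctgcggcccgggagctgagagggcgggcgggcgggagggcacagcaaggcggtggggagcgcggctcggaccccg
The Dnmt1 window held 33 CpG and 2 words, TTTCGCGC on the opposite strand 219 bases before the listed start and TTTGGCGC 33 bases after it. Which start these cells use was not tested. The Uhrf1 window held 33 CpG and 1 word, TTTCGCGC 185 bases before the listed start. The other listed windows of Dnmt1 and Uhrf1 held none of the words. No window of Dnmt3a, Dnmt3b, Dnmt3l or Uhrf2 held one of the words, although the printed windows of Dnmt3a and Uhrf2 held 47 and 28 CpG. At least 1 word was held by 2.26% of all 32851 windows in the table and by 5.15% of the 8701 windows with 20 or more CpG. Among the partners of Dnmt1 and Uhrf1 that are listed below, 4 of the 13 with a window held a word (Cdca7, Hells, Lig1 and Pclaf), beside 2.61% of the 27025 genes in the table. Of the genes of G2 and mitosis listed below, 1 of the 16 with a window held a word (Cdk1). A match is a description of the letters and not a site shown to be bound.

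In untreated cells the maintenance pair stood above the other members, by a margin that depended on the length used. Per kb of exon, control B16F10 libraries held Uhrf1 at 54.2 ± 2.67 CPM, Dnmt1 at 38.8 ± 1.36, Uhrf2 at 9.04 ± 0.434, Dnmt3a at 6.47 ± 0.323 and Dnmt3b at 1.76 ± 0.177 (SD, n = 3). No neighbours in that order overlapped. In control 4T1 the levels per kb were 72.3 ± 3.17 for Uhrf1, 57.3 ± 3.88 for Dnmt1, 9.90 ± 1.18 for Uhrf2, 1.10 ± 0.217 for Dnmt3a and 1.09 ± 0.0599 for Dnmt3b (SD, n = 3). Dnmt3a and Dnmt3b overlapped there, and the other neighbours did not. Uhrf1 exceeded 95.8% of tested genes per kb in control B16F10 and 96.5% in control 4T1, while Dnmt3a exceeded 65.1% and 40.1%. With the longest transcript as the length, Uhrf2 and Dnmt1 stood at 22.0 and 48.8 in control B16F10. In control 4T1 they stood at 24.1 and 72.0.

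**Figure D1:**
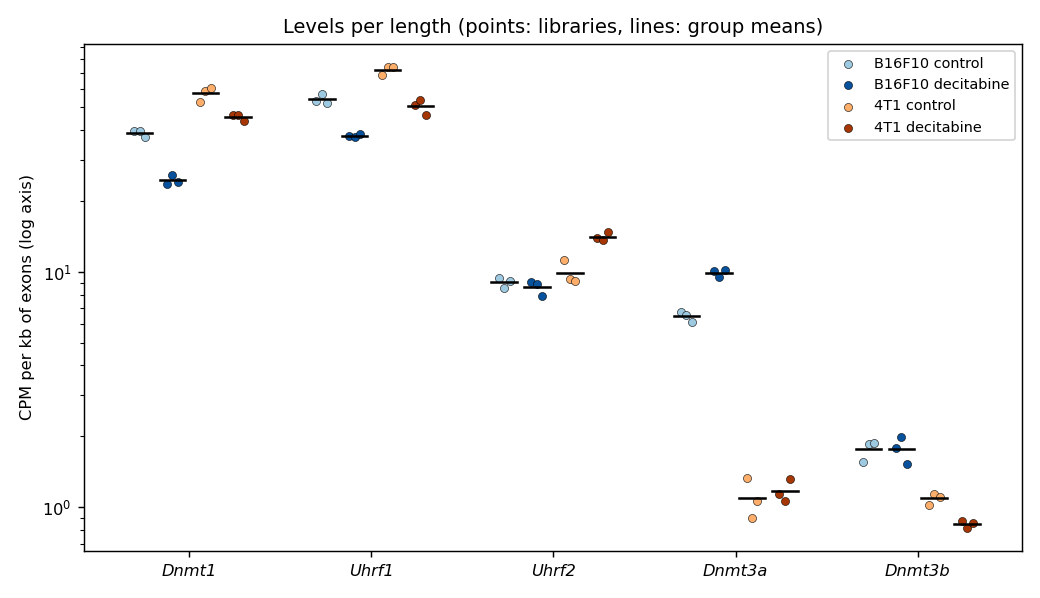
Levels of 5 members in CPM per kb of exon on a log axis, with 1 point per library and a line at each mean of 3 libraries. Dnmt1 and Uhrf1 lie above the others in all 4 groups, and Dnmt3a lies at 6.47 to 9.92 in B16F10 and at 1.10 to 1.17 in 4T1.

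The 2 untreated lines differed most in Dnmt3a. Dnmt3a read 112, 109.5 and 102 CPM in the control B16F10 libraries and 22.1, 15.0 and 17.6 CPM in the control 4T1 libraries. The highest 4T1 library thus lay far below the lowest B16F10 library, and Dnmt3a was 5.91-fold lower in 4T1 (log2 -2.56 ± 0.118 SE, adjusted p = 2.29e-10). Dnmt3b was also lower in control 4T1 (log2 -0.69 ± 0.117 SE, adjusted p = 2.92e-05), while Dnmt1 (log2 0.56 ± 0.0550 SE, adjusted p = 2.61e-08) and Uhrf1 (log2 0.41 ± 0.0570 SE, adjusted p = 2.47e-06) were higher. Uhrf2 did not pass the threshold between untreated lines (log2 0.13, 95% interval -0.027 to 0.29, adjusted p = 0.121). It passed with DESeq2 (log2 0.19, adjusted p = 0.0251) and without 4T1 control replicate 3 (log2 0.23, adjusted p = 0.0168), replicate 2 (0.21, adjusted p = 0.0334) or B16F10 decitabine replicate 3 (0.16, adjusted p = 0.0476). With each library left out in turn, its value ran from 0.060 to 0.23 and its adjusted p from 0.0168 to 0.410 (edgeR). With library totals alone the Uhrf2 value was 0.046 (adjusted p = 0.598, edgeR). Of the 5 members tested 2 were higher and 2 lower in 4T1, in a comparison in which 77.9% of 17127 tested genes differed, 40.0% higher and 37.9% lower. These tests came from 1 edgeR quasi-likelihood fit of all 12 libraries.

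Dnmt1 and Uhrf1, the maintenance pair, fell with decitabine in both lines. Dnmt1 read 293, 292 and 275 CPM in control B16F10 and 175, 189.5 and 177 CPM with 0.1 µM decitabine. All 3 treated libraries lay below all 3 controls, and Dnmt1 fell by 0.66 on the log2 scale (0.0563 SE, adjusted p = 2.57e-08, edgeR). In 4T1 Dnmt1 read 391, 432 and 446 CPM in controls and 342, 341 and 323 CPM with 1 µM decitabine. The groups did not overlap there either, and the decrease was smaller, by 0.28 on the log2 scale (0.0523 SE, adjusted p = 0.000515, edgeR). Without 4T1 control replicate 1, the lowest of its controls for Dnmt1, the value was -0.35 with adjusted p = 2.17e-06 by the same test.

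Uhrf1 read 228, 244 and 222 CPM in control B16F10 and 161, 159 and 164 CPM with decitabine. The 3 treated libraries lay close together and below every control, and Uhrf1 fell by 0.51 on the log2 scale (0.0550 SE, adjusted p = 5.26e-07, edgeR). In 4T1 Uhrf1 read 292, 315 and 316 CPM in controls and 219, 229.6 and 197 CPM with decitabine, again without overlap. Uhrf1 fell there by 0.47 on the log2 scale (0.0592 SE, adjusted p = 3.14e-05, edgeR), and the value was -0.52 without 4T1 control replicate 1. In bulk RNA, fewer cells with a transcript and less of it per cell cannot be told apart. Uhrf1 shares 24.2% of its 31-base words with other genes, mostly the predicted gene Gm5648 (21.9%), but its 2 partners held 0.0302% to 0.222% of the summed counts, and summing them changed no call.

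Of the 5 members tested in B16F10, 2 fell and 1 rose, in a comparison in which 41.2% of 14344 tested genes passed the threshold, 21.4% upward and 19.8% downward. Of the 5 tested in 4T1, 3 fell and 1 rose, beside 75.3% of 15523 tested genes, 39.2% upward and 36.1% downward. The libraries of the 2 groups did not overlap for 3 members in B16F10 and 4 members in 4T1, as for 50.5% and 78.7% of tested genes. With so many genes past the threshold in 4T1, the share of members called there is close to the background. With library totals alone as the scaling, the 4T1 values were -0.58 for Dnmt1, -0.77 for Uhrf1, -0.61 for Dnmt3b and 0.26 for Uhrf2, all still past the threshold, while the median of all genes moved from 0.027 to -0.27. Dnmt3l had too few counts to be tested in either line.

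**Figure D2:**
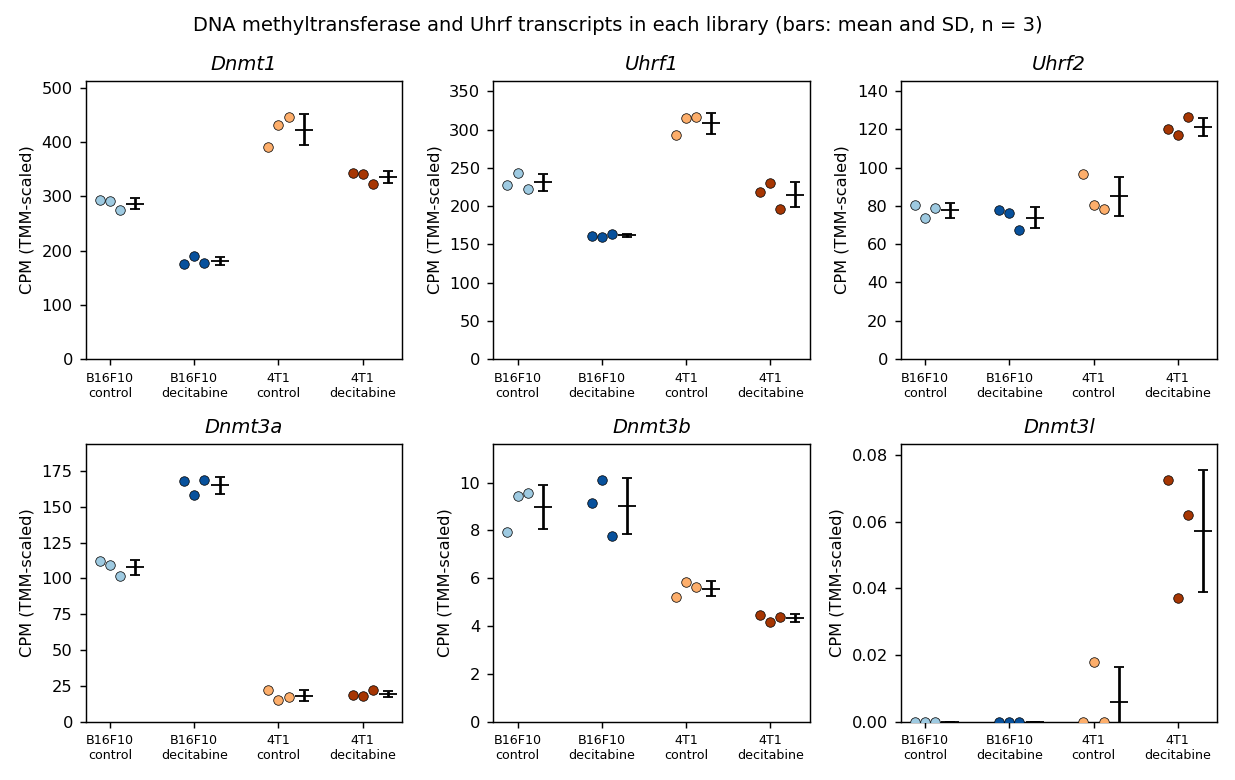
CPM of each member in every library, with 1 point per library and the mean and SD of 3 libraries beside it, each panel on its own axis from 0. Dnmt1 and Uhrf1 lie lower with decitabine in both lines, Dnmt3a lies higher with it in B16F10 (102 to 112 against 158 to 169 CPM), and Uhrf2 lies higher with it in 4T1 (78.2 to 96.7 against 117 to 126 CPM).

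Uhrf2, the relative of Uhrf1, rose in 4T1. It read 96.7, 80.3 and 78.2 CPM in control 4T1 and 120.1, 117 and 126 CPM with decitabine. Control replicate 1 was the highest control and still lay below every treated library, and Uhrf2 rose by 0.56 on the log2 scale (0.0804 SE, adjusted p = 0.000179, edgeR) with that library and by 0.65 (adjusted p = 3.46e-09) without it. In B16F10 Uhrf2 read 80.8, 73.5 and 78.8 CPM in controls and 77.8, 76.3 and 67.5 CPM with decitabine, and the groups overlapped. Its change in B16F10 was -0.068 on the log2 scale with a 95% interval from -0.21 to 0.070 (adjusted p = 0.445, edgeR).

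Dnmt3a, a de novo enzyme, rose in B16F10 while Dnmt1 fell. It read 168, 158 and 169 CPM with decitabine against the control values of 112, 109.5 and 102 CPM given above. The groups did not overlap, and Dnmt3a rose by 0.62 on the log2 scale (0.0556 SE, adjusted p = 4.99e-08, edgeR). In 4T1 its treated libraries read 18.9, 17.7 and 21.9 CPM and lay within the range of the controls, 15.0 to 22.1 CPM. The change there was 0.15 on the log2 scale with a 95% interval from -0.19 to 0.49 (adjusted p = 0.382, edgeR). Without 4T1 control replicate 1, the highest control, the change was 0.30 with adjusted p = 0.0183, and it was -0.15 when libraries were scaled by their totals alone.

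Dnmt3b, the other de novo enzyme, was low in both lines and fell slightly in 4T1. It read 5.23, 5.83 and 5.62 CPM in control 4T1 and 4.47, 4.17 and 4.36 CPM with decitabine. The groups did not overlap, and Dnmt3b fell by 0.31 on the log2 scale (0.0954 SE, adjusted p = 0.0121, edgeR), a call lost without 4T1 decitabine replicate 2 (adjusted p = 0.0506). In B16F10 the libraries read 7.94, 9.43 and 9.56 CPM in controls and 9.13, 10.1 and 7.77 CPM with decitabine. These overlapped throughout, with a change of 0.0089 and a 95% interval from -0.24 to 0.26 on the log2 scale (adjusted p = 0.962, edgeR). Dnmt3b shares 13.5% of its 31-base words with Dnmt3c, its rodent relative of the male germline.

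Dnmt3l was at or near the limit of detection. It had 0 counts in all 6 B16F10 libraries, where 3 counts over a group correspond to 0.0170 CPM in controls and 0.0172 CPM with decitabine. In 4T1 it had 0, 1 and 0 counts in controls and 3, 2 and 4 counts with decitabine. Each treated library thus held more than any control, on 9 counts against 1, a ratio of 8.95 after scaling with a 95% counting interval from 1.24 to 392. When no gene was filtered out, Dnmt3l in 4T1 had adjusted p = 0.0647 by the edgeR test. Aire lies on the opposite strand across part of Dnmt3l and held 2 to 46 counts per library. Its transcripts share 1.27% of the 31-base words of Dnmt3l. Without a stated strand setting, reads in that shared part cannot be told apart. Dnmt3c stood at 0.790 ± 0.327 CPM in control B16F10 and 0.819 ± 0.0209 CPM with decitabine (SD, n = 3), and it had about 1 estimated count per group in 4T1. It held 6.07% to 11.0% of the summed counts of Dnmt3b and Dnmt3c in B16F10, and summing the pair changed no call. Trdmt1, a more abundant relative of the DNA methyltransferases that acts on transfer RNA, fell in both lines. Trdmt1 went from 18.6 ± 0.729 to 14.2 ± 1.04 CPM in B16F10 (log2 -0.38 ± 0.0844 SE, adjusted p = 0.00122) and from 16.4 ± 2.21 to 8.71 ± 0.208 CPM in 4T1 (log2 -0.86 ± 0.0958 SE, adjusted p = 1.06e-05, edgeR).

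The responses of Dnmt1, Dnmt3a and Uhrf2 differed between the lines when the difference itself was tested. The response of Dnmt1 was higher by 0.33 on the log2 scale in 4T1, that is, less negative (95% interval 0.17 to 0.50, adjusted p = 0.00161, edgeR contrast over 12 libraries). The response of Uhrf2 was higher in 4T1 by 0.58 (95% interval 0.36 to 0.81, adjusted p = 0.000184), and that of Dnmt3a was lower in 4T1 by 0.51 (log2 -0.51, 95% interval -0.87 to -0.16, adjusted p = 0.0179). With each library left out in turn, the Dnmt3a difference ran from -0.65 to -0.35, with adjusted p up to 0.0491 by the same test. The responses of Uhrf1 did not differ past the threshold, with a difference of -0.0021 and a 95% interval from -0.17 to 0.17 on the log2 scale (adjusted p = 1.0). The difference for Dnmt3b was -0.37 with a 95% interval from -0.72 to -0.016 (adjusted p = 0.0776), and its adjusted p was 0.0270 without B16F10 decitabine replicate 3. Of the 5 members tested 2 were higher and 1 lower, beside 49.8% of 17127 tested genes, 20.9% higher and 28.9% lower.

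The call for Dnmt1 depended on the scaling, and that for Dnmt3a on the filter. With library totals alone the Dnmt1 difference was 0.11 (adjusted p = 0.229), and the median difference over all tested genes moved from -0.051 to -0.28, so that Dnmt1 stood 0.38 above the median under either scaling. The Uhrf2 difference was 0.36 with totals alone (adjusted p = 0.00985). Without the filter on low counts the Dnmt3a difference was -0.54 with adjusted p = 0.0520. In treated 4T1 the 10 most abundant genes held 23.2% ± 0.759 of the counts, against 5.61% ± 0.193 in its controls and 8.82% ± 0.737 and 10.1% ± 0.918 in B16F10 without and with decitabine (SD, n = 3).

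**Figure D3:**
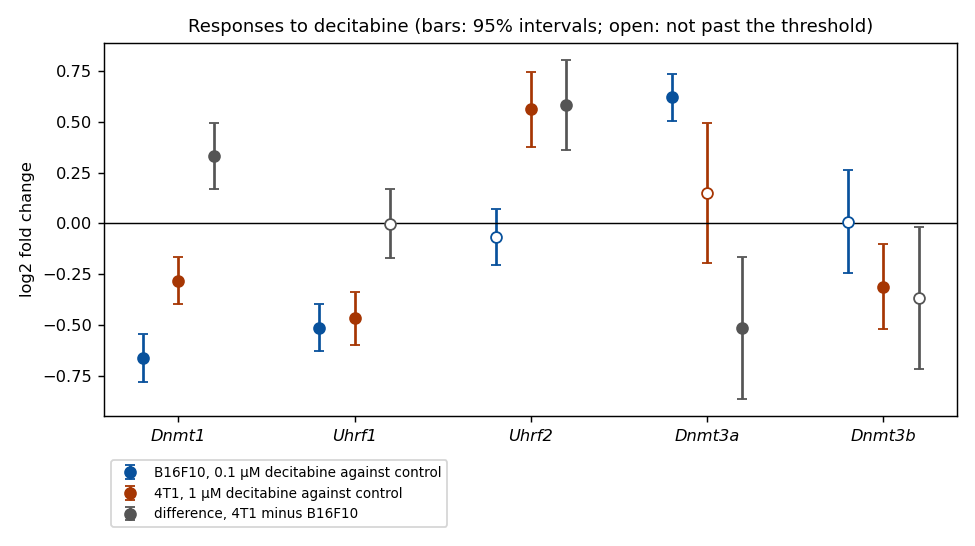
Log2 fold change with decitabine of 5 members in B16F10 and in 4T1, and the difference of the responses (4T1 minus B16F10), with bars for 95% intervals and open points for values not past the threshold. Uhrf1 has responses of -0.51 and -0.47 and a difference of -0.0021, while Uhrf2 has -0.068 and 0.56 and a difference of 0.58.

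Ratios of members within a library, which do not move with the scaling of libraries, changed with decitabine in opposite or unequal amounts. The log2 ratio of Dnmt3a to Dnmt1 per kb went from -2.59 ± 0.0243 in control B16F10 to -1.30 ± 0.114 with decitabine, and all treated libraries lay above all controls. In 4T1 the same ratio was -5.72 ± 0.367 in controls and -5.28 ± 0.205 with decitabine (SD, n = 3). The groups overlapped there, at -6.02 to -5.31 in controls and -5.44 to -5.05 with decitabine. That overlap rested on control replicate 1, which had the most Dnmt3a and the least Dnmt1 of the 4T1 controls. The log2 ratio of Uhrf2 to Uhrf1 per kb went from -2.58 ± 0.135 to -2.14 ± 0.126 in B16F10 and from -2.87 ± 0.231 to -1.84 ± 0.170 in 4T1, without overlap of the groups in either line. The log2 ratio of Uhrf1 to Dnmt1 moved in opposite directions in the 2 lines. It was 0.43 to 0.53 in control and 0.54 to 0.68 in treated B16F10, but 0.30 to 0.37 in control and 0.079 to 0.22 in treated 4T1. These ratios are descriptions with no test, and a ratio shows unequal change and not which gene of a pair changed.

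**Figure D4:**
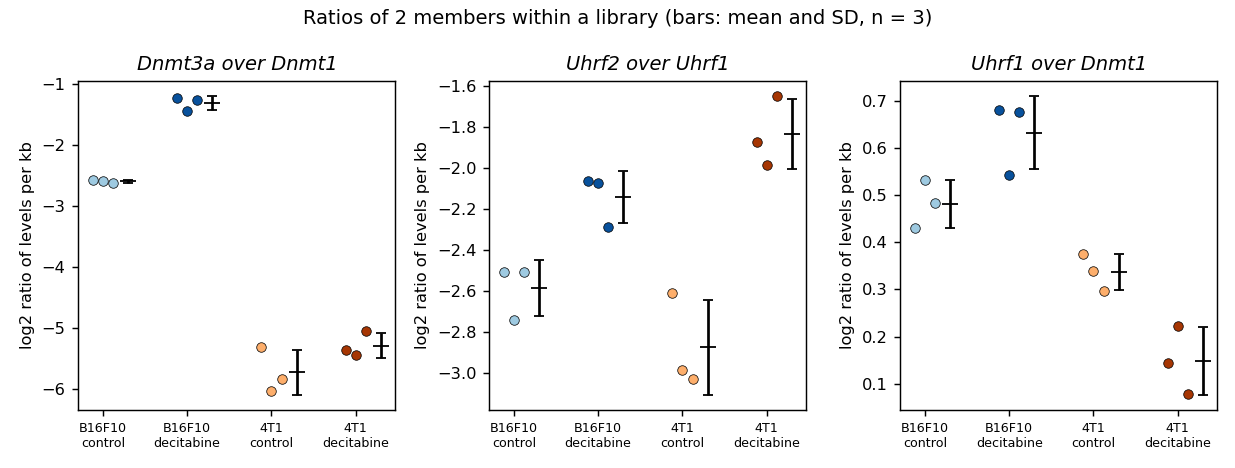
Log2 ratio of levels per kb of 2 members within each library, with 1 point per library and the mean and SD of 3 libraries beside it. Dnmt3a over Dnmt1 lies at -2.59 in control and -1.30 in treated B16F10, and Uhrf1 over Dnmt1 is higher with decitabine in B16F10 and lower with it in 4T1.

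After decitabine all 5 tested members differed between the lines, which differ in dose. Dnmt3a was 8.44-fold lower in treated 4T1 (log2 -3.08 ± 0.120 SE, adjusted p = 3.43e-11) and Dnmt3b 2.08-fold lower (log2 -1.06 ± 0.119 SE, adjusted p = 1.68e-07). Dnmt1 was 1.86-fold higher (log2 0.89 ± 0.0554 SE, adjusted p = 3.08e-11), Uhrf2 1.64-fold higher (log2 0.71 ± 0.0748 SE, adjusted p = 8.71e-08) and Uhrf1 1.33-fold higher (log2 0.41 ± 0.0572 SE, adjusted p = 2.52e-06, edgeR). The 3 higher and 2 lower members stand beside 83.7% of 17127 tested genes that differed, 43.6% higher and 40.1% lower. No member overlapped between the treated lines, as for 85.7% of tested genes. With library totals alone the Uhrf1 value was 0.10 and did not pass (adjusted p = 0.126), in a scaling that moved the median of all genes from 0.063 to -0.25. Dnmt1 and Uhrf2 were at 0.58 and 0.40 under it and passed. This comparison shares its libraries with the 2 responses. In the order of levels per kb in treated B16F10, Dnmt3a stood at 9.92 ± 0.354 CPM above Uhrf2 at 8.60 ± 0.646, the reverse of the controls, but Uhrf2 stood above Dnmt3a (20.9 against 17.0) when the longest transcript set the length. In treated 4T1, Uhrf1 at 50.5 ± 3.93 CPM per kb and Dnmt1 at 45.5 ± 1.50 overlapped (SD, n = 3).

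The partners of Dnmt1 and Uhrf1 at replicated DNA, and enzymes that act on the Dnmt1 protein, made up a list of 14 genes, all tested. In B16F10 1 rose and 6 fell, with a median log2 change of -0.11 beside 0.0030 for all tested genes, of which 41.2% passed the threshold. With 1 library left out, the falls numbered 4 to 6 and the rises 0 to 1. The DNA ligase Lig1, whose methylated tail is bound by Uhrf1, fell from 136 to 80.0 CPM (log2 -0.76, adjusted p = 2.46e-09, edgeR), and Pclaf, a PCNA-bound protein that Uhrf1 marks with ubiquitin, fell from 157 to 100.2 CPM (log2 -0.64, adjusted p = 3.28e-08). Usp7, a deubiquitinase that binds both members of the pair, rose from 174 to 198 CPM (log2 0.19, adjusted p = 0.0102), a call lost without B16F10 control replicate 2 (adjusted p = 0.0671). In 4T1 3 rose and 8 fell, with a median of -0.15 beside 0.027, and 75.3% of all tested genes passed, so that the share of partners called there is close to the background. Pclaf fell there from 138 to 46.7 CPM (log2 -1.52, adjusted p = 7.73e-10), and Setd7, a lysine methyltransferase that acts on Dnmt1, fell from 187 to 101 CPM (log2 -0.83, adjusted p = 9.18e-09). Zbtb24, a zinc finger protein mutated in a human syndrome of low DNA methylation, rose from 11.1 to 27.2 CPM (log2 1.34, adjusted p = 8.54e-08). In B16F10 Zbtb24 fell from 14.0 to 11.5 CPM (log2 -0.28, adjusted p = 0.0299, edgeR), a call lost without control replicate 2 (adjusted p = 0.145) or 3 (0.0620) and without decitabine replicate 1 (0.0997) or 3 (0.0585). The acetyltransferase Kat5 rose from 50.7 to 59.2 CPM (log2 0.28, adjusted p = 0.00280), but its value was -0.023 with library totals alone.

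The chromatin factors that guide or assist the Dnmt3 enzymes, made up a list of 10 genes, all tested. In B16F10 1 rose and 5 fell, with a median of -0.13 beside 0.0030 for all tested genes, of which 21.4% rose and 19.8% fell. In 4T1 1 rose and 7 fell, with a median of -0.24 beside 0.027 for all tested genes, of which 39.2% rose and 36.1% fell. Nsd2, which writes dimethylated lysine 36 of histone H3, fell from 231 to 165 CPM in B16F10 (log2 -0.48, adjusted p = 4.07e-06) and from 379 to 245 CPM in 4T1 (log2 -0.58, adjusted p = 3.22e-07). Its relative Nsd1 fell in B16F10 from 109.7 to 90.7 CPM (log2 -0.27, adjusted p = 0.00132, edgeR) and rose in 4T1 from 63.4 to 97.3 CPM (log2 0.67, adjusted p = 1.14e-05). Zfp57, which keeps methylation at imprinted loci, rose in B16F10 from 10.7 to 14.5 CPM (log2 0.45, adjusted p = 0.00170) and fell in 4T1 from 7.64 to 5.36 CPM (log2 -0.46, adjusted p = 0.00262, edgeR). Smchd1, a chromatin protein of the silent X chromosome, fell in 4T1 from 222 to 149.6 CPM (log2 -0.52, adjusted p = 1.15e-06).

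A further list held 10 proteins with a methyl-CpG binding domain or of the Zbtb family, of which some bind methylated DNA and others, such as Mbd6, are not known to. In B16F10 1 rose and 5 fell with a median of -0.13, beside 41.2% of all tested genes past the threshold. In 4T1 2 rose and 5 fell with a median of -0.15. The share called there is close to the 75.3% of all tested genes past the threshold, 39.2% upward and 36.1% downward. The count of falls in B16F10 was 3 without control replicate 2 and 3 without decitabine replicate 1. Zbtb38 rose in both lines, from 62.2 to 77.4 CPM in B16F10 (log2 0.32, adjusted p = 0.000225) and from 131 to 175 CPM in 4T1 (log2 0.47, adjusted p = 8.25e-06, edgeR). Mbd6 fell in B16F10 from 70.9 to 58.6 CPM (log2 -0.27, adjusted p = 0.00340), a call lost in 1 fit of all 12 libraries (log2 -0.28, adjusted p = 0.270, edgeR). In 4T1 Mbd2 fell from 89.3 to 48.2 CPM (log2 -0.84, adjusted p = 2.85e-08) and Zbtb33 from 38.8 to 20.7 CPM (log2 -0.86, adjusted p = 4.92e-07). Mbd1 rose there from 21.9 to 25.7 CPM (log2 0.28, adjusted p = 0.00120), a value of -0.020 with library totals alone.

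Genes of DNA replication and S phase, in which Dnmt1 and Uhrf1 are known to be expressed, moved with the pair in B16F10. Of 37 such genes 34 fell and 1 rose in B16F10, beside 21.4% of all tested genes that rose and 19.8% that fell. The median log2 change of the list was -0.48, close to the values of Uhrf1 (-0.51) and Dnmt1 (-0.66). In B16F10 8 of the 37 had a more negative change than Dnmt1 and 16 a more negative one than Uhrf1. The thymidine kinase Tk1 fell from 97.7 to 46.7 CPM (log2 -1.06, adjusted p = 3.27e-10) and the polymerase subunit Pold1 from 107 to 56.4 CPM (log2 -0.92, adjusted p = 2.05e-09), while the cyclin Ccne1 rose from 44.8 to 54.0 CPM (log2 0.27, adjusted p = 0.00236, edgeR). In 4T1 16 of the 37 fell and 11 rose with a median of -0.087, beside 36.1% of all tested genes that fell and 39.2% that rose, and the falls numbered 22 without control replicate 1. There 11 of the 37 had a more negative change than Dnmt1 and 5 a more negative one than Uhrf1. Tk1 fell in 4T1 from 167 to 52.9 CPM (log2 -1.61, adjusted p = 2.54e-08) and Dut, which removes dUTP, from 123 to 76.7 CPM (log2 -0.63, adjusted p = 2.85e-07), whereas the clamp loader subunits Rfc4 (28.2 to 39.5 CPM) and Rfc5 (91.7 to 117 CPM) rose. Both fell in B16F10, Rfc4 from 45.7 to 25.8 CPM and Rfc5 from 70.1 to 60.9 CPM.

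Of 20 genes of G2 and mitosis, 15 fell and 1 rose in B16F10 with a median of -0.29, and 12 fell and 3 rose in 4T1 with a median of -0.15. With 1 library left out, the falls numbered 10 to 14 in either line. Of all tested genes 19.8% fell and 21.4% rose in B16F10, and 36.1% fell and 39.2% rose in 4T1. Genes past the threshold made up 41.2% of all tested genes in B16F10 and 75.3% in 4T1, and the share of this list called in 4T1 is close to that background. Top2a fell from 780.4 to 515 CPM in B16F10 (log2 -0.60, adjusted p = 1.09e-07) and from 1387 to 916 CPM in 4T1 (log2 -0.55, adjusted p = 7.89e-07). Cdc20 rose in both lines, from 68.2 to 114 CPM (log2 0.74, adjusted p = 1.57e-07) and from 190.4 to 308 CPM (log2 0.75, adjusted p = 2.04e-07, edgeR). The part of the cell cycle in the responses of the members was not tested. Immediate early and heat shock genes also moved with treatment, and 7 of 11 tested rose and 1 fell in B16F10, where their sum went from between 180.4 and 181.1 to between 214 and 246 CPM. In 4T1 10 of 12 rose, and the shares of all tested genes that rose were 21.4% in B16F10 and 39.2% in 4T1. The 4T1 sum went from between 490.4 and 850.1 to between 2362 and 2903 CPM. Their part was not tested.

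**Figure D5:**
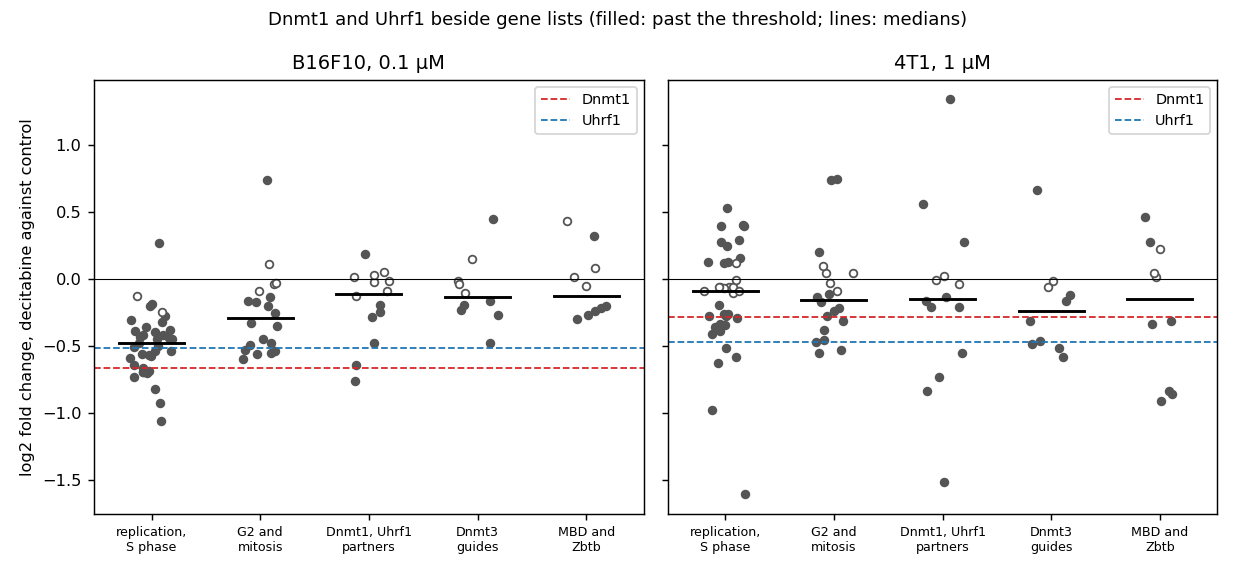
Log2 fold change with decitabine of the genes of 5 lists in B16F10 and in 4T1, with 1 point per gene, filled where past the threshold, a black line at each median, and dashed lines at Dnmt1 and Uhrf1. In B16F10 the S-phase genes lie around the values of Dnmt1 (-0.66) and Uhrf1 (-0.51) with a median of -0.48, and in 4T1 they spread from -1.61 to 0.53.

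Germline genes that promoter methylation is known to silence were, in sum, higher in both lines while the maintenance pair was lower. The 19 listed genes summed to between 5.07 and 5.80 CPM in control B16F10 and to between 53.8 and 59.8 CPM with decitabine. In 4T1 the sum went from between 4.82 and 5.29 CPM to between 537 and 565 CPM. In control B16F10 10 of the 19 had no count, in control 4T1 8 had none, and in the treated groups each had some. In B16F10 15 of 16 tested genes were called, all higher, beside 21.4% of all tested genes that rose. The tested gene not called there had a log2 change of -0.29. In 4T1 all 18 tested genes were called higher, beside 39.2% of all tested genes. But a gene with no count in controls passes the filter on low counts only through its treated libraries, so these counts are descriptions.

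Across the 12 libraries the genes most like Dnmt1 were Mcm6 (Pearson r = 0.989 of log2 CPM), a subunit of the replicative helicase, then Incenp (0.986) and Banf1 (0.985). Those most like Uhrf1 were Chaf1b (0.986), a subunit of chromatin assembly factor 1, Hmgb2 (0.985) and Psat1 (0.982). For Dnmt3a they were Snap23 (0.997), Acad12 (0.996) and Gpt (0.995), for Dnmt3b E2f6 (0.988), Armcx5 (0.984) and Irak1bp1 (0.984), and for Uhrf2 Sned1 (0.983), Mtrf1l (0.975) and AI597479 (0.975). Dnmt1 and Uhrf1 had r = 0.930 with each other, Dnmt3a and Dnmt3b 0.903, and Dnmt1 and Dnmt3a -0.88. The 12 points fall into 4 groups and share the contrast between the lines, so these coefficients are descriptions given with no p.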

How the data were processed

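The sources used here do not give the aligner, annotation or strand setting, nor which of 2 instrument types each library ran on. Per the labels' protocols, the library kit has molecular indices. The authors deposited estimated counts for each gene, unscaled, in a table for each line. RSEM, edgeR and mm10 are named in the submitters' processing notes without roles. Between 9.54% and 15.5% of a library's entries were not whole, and counts were rounded for the tests. Identifiers of 46005 of 46517 genes matched GENCODE M21, which gave locations and exon lengths.

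Each line's 6 libraries were fitted with edgeR 4.0.16 (robust quasi-likelihood test, default expression filter, TMM scaling, Benjamini-Hochberg threshold 0.05) in R 4.3.3. The difference of the responses and the comparisons between lines came from 1 fit of all 12 libraries, whose factors also scale the printed CPM, so a printed difference can depart slightly from that of the 2 responses. A level per kb is CPM divided by the kb of all exons joined. The coefficient of variation between libraries of a group beyond counting error, edgeR's common estimate, was 10.5% in B16F10 and 6.92% in 4T1. Libraries of a group differed by more than sampling noise (smallest chi-square per degree of freedom 5.67).

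Members and the 14 other gene lists were chosen with earlier results of these data known, so counts over them are descriptions. The members are always named, with up to 2 rising and 2 falling genes per list and line with the smallest adjusted p, and the 3 genes most correlated with each member, without predicted genes and clone names. Names in the promoter search, markers at 0 and values of a named gene in the line where the rule does not name it stand outside that rule and were chosen after their values were seen. A gene that the rule names is not reported here. Alternatives were DESeq2 1.42.0, limma 3.58.1 (voom), other scalings, no filter, protein-coding genes only, 1 fit of both lines, the replicate block, each library left out, and, after seeing the data, genes that share sequence summed and list counts without each library. The tests were tried on simulated counts in which 200 genes were changed, a far smaller share than passed the threshold in the data. False calls made up 8.84% of calls for B16F10, 9.45% for 4T1 and 6.62% for the difference, each above the rate set by the threshold. Of simulated 1.5-fold changes, 62%, 78% and 56% were recovered in that order, so changes of that size can be missed. Of simulated 4-fold changes, 96%, 100% and 82% were recovered. Because so few genes were changed in the simulation, its rates of false calls and of recovery need not hold in the data. Sequences came from the RefSeq promoter table of GRCm38.p6. Figures were drawn with matplotlib 3.10.9.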

Additional observations from a re-analysis of the deposited data

Results flagged for a closer look

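The responses of 3 members to decitabine differed between B16F10 at 0.1 µM and 4T1 at 1 µM when the difference was tested as a contrast over the 12 libraries with edgeR. For Dnmt1 the response in 4T1 minus that in B16F10 was 0.33 on the log2 scale, with a decrease in 6 of 6 treated libraries against every control of their line. For Dnmt3a it was -0.51, with all 3 treated B16F10 libraries above their controls and the 4T1 groups overlapping. For Uhrf2 it was 0.58, with all 3 treated 4T1 libraries above their controls and the B16F10 groups overlapping. With library totals alone as the scaling the Dnmt1 difference was 0.11 (adjusted p = 0.229), and with no filter on low counts the adjusted p of Dnmt3a was 0.0520. Line and dose cannot be told apart in any of the 3.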

How the results depend on the processing

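Of the 30 values of the 5 tested members in B16F10 with 1 library left out, 28 kept direction and call, as did 28 of 30 in 4T1, 53 of 60 for the difference of the responses, 57 of 60 between untreated lines and 60 of 60 between treated lines. Left out in turn, the ranges of the log2 values that crossed were -0.082 to 0.10 for Dnmt3b in B16F10, 0.016 to 0.30 for Dnmt3a and -0.37 to -0.28 for Dnmt3b in 4T1, -0.46 to -0.28 for the Dnmt3b difference, -0.052 to 0.059 for the Uhrf1 difference and 0.060 to 0.23 for Uhrf2 between untreated lines. With library totals alone, which moved the median change of all genes in 4T1 from 0.027 to -0.27, Dnmt3b in B16F10 was -0.020 and Dnmt3a in 4T1 was -0.15. The same scaling gave differences of 0.11 for Dnmt1, -0.59 for Dnmt3b (adjusted p = 0.00573) and -0.23 for Uhrf1 (adjusted p = 0.0318), and 0.10 for Uhrf1 between treated lines. Under it Kat5, Mbd1 and Epcam in 4T1 turned to -0.023, -0.020 and -0.024. Relative to the median of all genes the members' 4T1 values were -0.31 for Dnmt1, -0.49 for Uhrf1, 0.12 for Dnmt3a, -0.34 for Dnmt3b and 0.53 for Uhrf2 under TMM and under totals alike. The split of calls in 4T1 was 6087 higher and 5601 lower with TMM and 4248 and 8242 with totals, that of the difference 3577 and 4949 against 2475 and 6908, and that between treated lines 7461 and 6866 against 6081 and 8358. With no filter the Dnmt3a difference was -0.54. The Uhrf1 difference, near 0, was 0.046 with DESeq2, 0.046 with RLE size factors and 0.028 with protein-coding genes only. Uhrf2 between untreated lines was 0.19 with DESeq2 and 0.19 with RLE size factors, both past the threshold. The cause of these shifts was not tested.

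Same-numbered libraries of control and treated cells did not deviate together, nor did every library correlate best with its own number (correlations -0.11, -0.074 and -0.030 in B16F10, -0.050, 0.032 and -0.037 in 4T1). The values gave no sign of pairing by number, which 3 libraries per group cannot exclude. With the replicate number as a block, 2947 genes rose and 2781 fell in B16F10 and 5906 rose and 5401 fell in 4T1, and no call of a member changed.

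Levels per kb move with the length used and less with the scaling. With the longest transcript, in the order control B16F10, treated B16F10, control 4T1 and treated 4T1, the levels were 48.8, 30.8, 72.0 and 57.1 for Dnmt1, 11.1, 17.0, 1.88 and 2.01 for Dnmt3a, 2.08, 2.08, 1.29 and 1.00 for Dnmt3b, 64.4, 45.0, 85.9 and 59.9 for Uhrf1, and 22.0, 20.9, 24.1 and 34.3 for Uhrf2. With library totals alone and the exons joined, the levels that moved by more than their SD in B16F10 were 41.9 and 26.0 for Dnmt1, 6.98 and 10.5 for Dnmt3a and 58.6 and 40.3 for Uhrf1 (control and treated), and 9.76 for Uhrf2 in controls. In treated 4T1 they were 38.9 for Dnmt1, 1.00 for Dnmt3a, 0.727 for Dnmt3b, 43.2 for Uhrf1 and 12.1 for Uhrf2. Depth limits Dnmt3l, with 0 to 4 counts per library, and Dnmt3c in 4T1.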

Other observations

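Methyl groups for DNA come from S-adenosylmethionine, which the methionine cycle makes and recycles. Of 11 listed genes of that cycle 8 were tested in B16F10, where 3 rose and 2 fell, and 9 were tested in 4T1, where 2 rose and 5 fell. Genes past the threshold made up 41.2% of all tested genes in B16F10 and 75.3% in 4T1, and the share of the list called in 4T1 is close to that background. Shmt2, which feeds one-carbon units into the cycle from mitochondria, fell from 568 to 256 CPM in B16F10 (log2 -1.15, adjusted p = 7.31e-11, edgeR) and from 267 to 170.3 CPM in 4T1 (log2 -0.60, adjusted p = 2.64e-07). Mat2a, the S-adenosylmethionine synthetase of most tissues, rose in B16F10 from 194 to 231 CPM (log2 0.25, adjusted p = 0.00223) and fell in 4T1 from 279 to 142 CPM (log2 -0.92, adjusted p = 0.00821, edgeR). In 1 fit of all 12 libraries the rise in B16F10 did not pass (adjusted p = 0.240). Its regulatory subunit Mat2b fell in 4T1 from 54.5 to 32.3 CPM (log2 -0.70, adjusted p = 6.98e-07). Mtrr, which reactivates methionine synthase, rose from 22.0 to 37.3 CPM in 4T1 (log2 0.81, adjusted p = 7.42e-05) and from 13.3 to 16.2 CPM in B16F10 (log2 0.29, adjusted p = 0.0170). The B16F10 call of Mtrr was lost without control replicate 3 (adjusted p = 0.0768) and without decitabine replicate 3 (adjusted p = 0.0805), and the list had 1 rise without control replicate 3 and 4 falls without control replicate 1. The medians of the list were -0.094 in B16F10 and -0.15 in 4T1, beside 0.0030 and 0.027 for all tested genes.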
